A study of Mus musculus with 18 samples.

Results

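The genotype difference late after TNF was measured in mouse bone marrow-derived macrophages by comparing RelA-TA-KI cells at 3 and 8 h of TNF with wild-type (WT) cells at the same times. These 4 libraries, 2 matched pairs of 18 libraries in all, were chosen by genotype, agent and time alone. By its name, RelA-TA-KI carries an altered copy of Rela, which encodes RelA (p65), a subunit of NF-kB. The labels do not spell out TA or say what the knock-in changes. Both genotypes were on the C57BL/6 strain, and the age in the labels is 12 days, without saying what it counts. Cells grew for 7 days in medium with 30% conditioned medium of L929 cells, a fibroblast line, and then received TNF at 10 ng/ml. The other 14 libraries were unstimulated cells, cells at 0.5 and 1 h of TNF, and cells at 0.5, 1, 3 and 8 h of lipopolysaccharide (LPS, 100 ng/ml), 1 library per genotype each. Poly(A) RNA was sequenced, and values are in CPM, read counts scaled to a common library size with TMM factors. Where a genotype has a pair of values, the first is from 3 h and the second from 8 h. No animals or cultures are named, so genotype and culture cannot be told apart. The p-values measure how the 2 genotype pairs of a stage differ, pooled over early and late stages of both agents. They do not measure a spread between replicates.

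NF-kB is a family of dimeric transcription factors held in the cytoplasm by inhibitor proteins such as IkB-alpha. TNF binding to its receptor starts a kinase cascade that removes the inhibitor, RelA dimers enter the nucleus, and their targets include the inhibitors themselves, cytokines, chemokines, adhesion molecules and survival genes. RelA carries transactivation domains at its carboxy end that recruit the transcription machinery. In macrophages many of these targets are transcribed in the first hour, and slower genes, such as acute-phase proteins and scavenger receptors, build up over several hours.

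The late TNF libraries held 4663650 and 5260272 counts in the knock-in and 5521652 and 5412812 counts in WT. The knock-in library at 3 h stood apart, with the lowest total and the lowest mitochondrial share (0.404%) of the 18 libraries and the highest share of the abundant transcript Gm42418 (3.36%). Rela itself had 122 and 104 CPM in the knock-in and 138 and 119 CPM in WT. This small difference had an adjusted p of 0.42, and a knock-in that keeps the transcript cannot be checked from gene counts. The defining macrophage markers were abundant throughout: Csf1r, the receptor for the growth factor that sustains macrophages, had 875 and 898 CPM in the knock-in and 1110 and 1414 CPM in WT, and Adgre1, which encodes F4/80, had 696 and 945 CPM in the knock-in and 704 and 842 CPM in WT. Itgam, Cd68 and Lyz2 were above 320 CPM in all 4 libraries.

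The promoters of the 3 lower genes with the smallest p-values among the named genes are shown, because they lead the lower group. Each line is the 250 bases before the gene's start in RefSeq on GRCm38.p6, read 5′ to 3′ on the gene's strand. The window of Tlr2 overlaps the gene as counted, which ends at 83841767. Capitals mark matches to GGGNNNTTCC, a form of the motif NF-kB dimers bind, searched on both strands.
Saa3 promoter, chr7:46715677-46715926, minus strand: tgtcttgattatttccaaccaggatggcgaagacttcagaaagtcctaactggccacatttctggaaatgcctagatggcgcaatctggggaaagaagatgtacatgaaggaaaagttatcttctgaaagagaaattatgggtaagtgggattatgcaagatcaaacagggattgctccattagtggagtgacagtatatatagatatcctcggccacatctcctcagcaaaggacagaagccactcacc
Marco promoter, chr1:120505025-120505274, minus strand: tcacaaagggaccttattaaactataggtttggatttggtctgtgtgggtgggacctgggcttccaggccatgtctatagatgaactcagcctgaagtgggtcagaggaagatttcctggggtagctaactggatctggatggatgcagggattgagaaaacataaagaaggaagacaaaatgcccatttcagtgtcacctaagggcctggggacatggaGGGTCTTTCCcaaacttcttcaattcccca
Tlr2 promoter, chr3:83841609-83841858, minus strand: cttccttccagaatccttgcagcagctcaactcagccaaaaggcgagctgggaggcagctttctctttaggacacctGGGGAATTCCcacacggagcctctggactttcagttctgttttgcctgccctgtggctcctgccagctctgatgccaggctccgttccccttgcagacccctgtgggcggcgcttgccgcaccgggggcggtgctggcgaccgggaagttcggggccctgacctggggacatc
The window of Saa3 held no match. Marco had 1 match, which began 30 bases before the start, and Tlr2 had 1 match, which began 173 bases before it. Dhrs9, Jund and Atf3 were the higher named genes with the smallest p-values among those with a promoter available. Their windows, not printed, held 0 matches each. The motif was found in 3.77% of the promoters of genes called lower and in 6.87% of those of genes called higher, against 5.25% of the promoters of all genes tested and 4.65% of all promoters in the RefSeq table. Among genes induced late by TNF in both genotypes together it was found in 9.44%. A match describes letters in this window and is not evidence of binding.

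Late after TNF, the knock-in libraries had less RNA of Saa3, Marco, C3, Tlr2 and 4 genes of the MHC class II pathway, and more of Scd1, Lpl, Dusp1 and Egr2. Of the lists described below, late effector genes had 9 of 28 tested members called lower and stromal markers 6 of 8. In both lists 0 were higher. Fatty acid and LXR genes had 11 of 18 called higher and 0 lower. Cholesterol synthesis, glycolysis and lysosomal genes were among other lists with calls in 1 direction only. List counts here and below stand beside 3.27% higher and 2.41% lower of all genes tested. Of 11621 genes tested, 660 were called at an adjusted p under 0.05 (5.68%), with 380 higher (3.27%) and 280 lower (2.41%) in the knock-in. On simulated data the share of false calls was above this threshold, so calls near 0.05 are less certain than the adjusted p states. All 660 had the same sign in the 3 h pair and in the 8 h pair. Lower genes differed by more: their median log2 fold change, knock-in over WT, was -1.30, against 0.60 for the higher genes, and 163 lower but 89 higher genes differed by over 2-fold. Both knock-in libraries lay below both WT libraries at 227 of the 280 lower genes, against 17.6% of all genes tested. They lay above both at 316 of the 380 higher genes, against 16.5%. The genes were called from these same libraries, so the shared sign and the separation follow in part from the selection. Scaling by library totals gave 680 calls, of which 209 were higher and 471 lower. The median of all genes was then -0.13, against -0.01 with TMM. With the 3 h pair alone 250 genes were called, and with the 8 h pair alone 265. Of the 74 named genes among the 660, 32 were called in each pair alone, 10 in the 3 h pair only, 11 in the 8 h pair only and 21 in neither. In RNA from a whole culture, fewer cells of a type and less RNA per cell cannot be told apart.

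**Figure D1:**
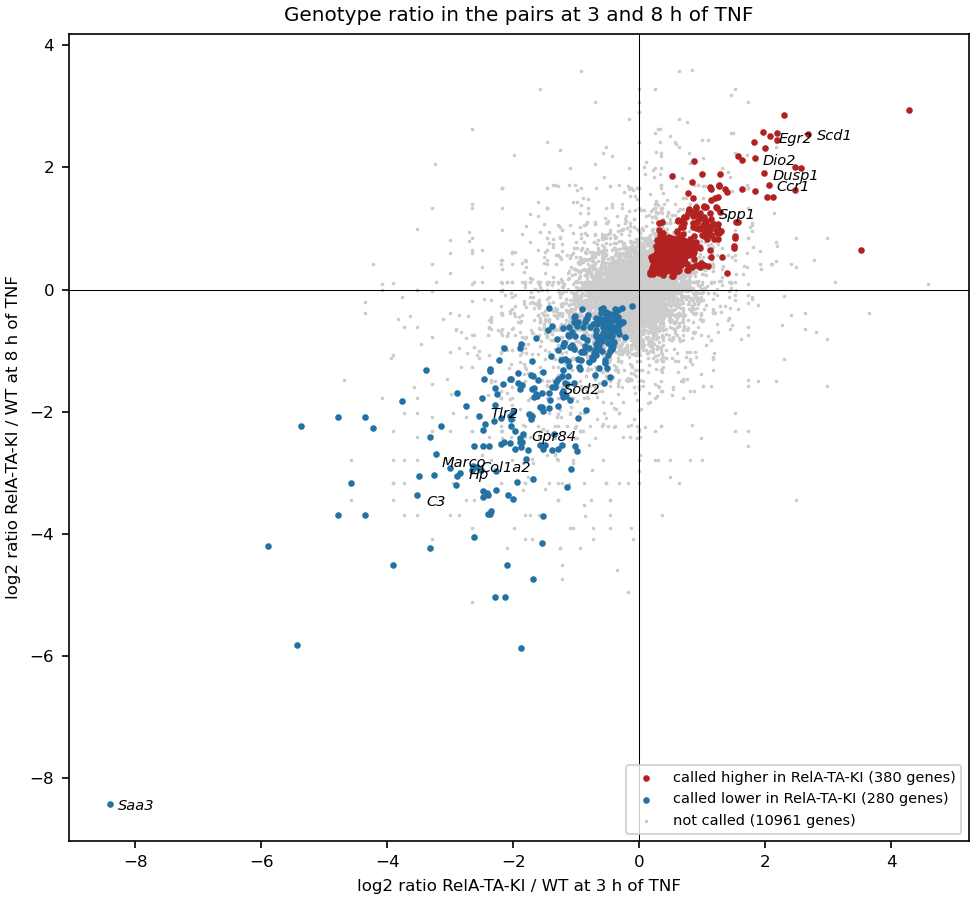
Each point is 1 of 11621 tested genes, placed by its log2 ratio of RelA-TA-KI to WT at 3 h (x axis) and at 8 h of TNF (y axis), red where called higher (380 genes), blue where called lower (280 genes). Called genes lie in the lower left and upper right quadrants, and Saa3 is the farthest point at the lower left.

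The largest difference belonged to Saa3 (chromosome 7, 46711998 to 46715676, minus strand, mm10), an acute-phase apolipoprotein that activated macrophages secrete. It had 0 and 2 reads in the knock-in libraries and 192 and 927 reads in WT (0 and 0.396 CPM against 30.7 and 167 CPM). WT cells thus accumulated the transcript and knock-in cells hardly contained it. The ratio of WT to knock-in was 467-fold, with a 95% counting interval of 129 to 3860, and the adjusted p in edgeR's quasi-likelihood test was 2.1e-07. Without TNF the knock-in had 0 CPM and WT 1.73 CPM.

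Marco (chromosome 1, 120474538 to 120505024, minus strand), a scavenger receptor that binds bacteria and particles, had 7.51 and 40.8 CPM in the knock-in and 73.0 and 336 CPM in WT. The gene climbed between 3 and 8 h in both genotypes, and the highest knock-in value stayed under the lowest WT value. Knock-in cells had 8.62-fold less, a log2 fold change of -3.11 ± 0.16 (standard error worked back from the test, 2 pairs), with an adjusted p of 4.1e-06. C3, the central complement component, had 11.7 and 46.5 CPM in the knock-in and 88.4 and 429 CPM in WT, again without overlap (-3.09 ± 0.50, adjusted p = 0.035), although neither pair alone gave a call and limma-voom did not either (adjusted p = 0.078). Hp, which encodes the haemoglobin-binding haptoglobin, had 1.46 and 1.58 CPM in the knock-in and 11.0 and 13.3 CPM in WT (-2.98 ± 0.31, adjusted p = 0.00041). It changed little between 3 and 8 h in both genotypes. Gpr84, a receptor for medium-chain fatty acids, had 24.2 and 31.1 CPM in the knock-in and 86.8 and 161 CPM in WT (-2.13 ± 0.16, adjusted p = 4.5e-05).

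These genes belong to a list of late effector genes. Of its 28 tested members 9 were called lower and 0 higher, against 2.41% and 3.27% of all genes tested. The median log2 fold change was -1.28 beside -0.01 over all genes tested. Both knock-in libraries lay below both WT libraries at 17 of the 28, against 17.6% of all genes tested. Without the 3 h pair 7 were called lower, and without the 8 h pair 5. The other called members were Ass1, which makes argininosuccinate for arginine synthesis (0.626 and 1.39 CPM in the knock-in, 3.36 and 14.2 CPM in WT), the formyl peptide receptor Fpr2, the arginase Arg2 and the prostaglandin E synthase Ptges. Ptges had 4.80 and 19.2 CPM in the knock-in and 11.5 and 42.7 CPM in WT. Acod1, the enzyme that makes itaconate, had 115 and 825 CPM in the knock-in and 908 and 2696 CPM in WT, so the knock-in at 8 h fell short of WT at 3 h, but its adjusted p was 0.078. Nos2, the inducible nitric oxide synthase, had 0.209 and 32.3 CPM in the knock-in and 4.0 and 35.1 CPM in WT, nearly level at 8 h and not called. In unstimulated cells the list already had a median of -0.86 in its single pair.

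**Figure D2:**
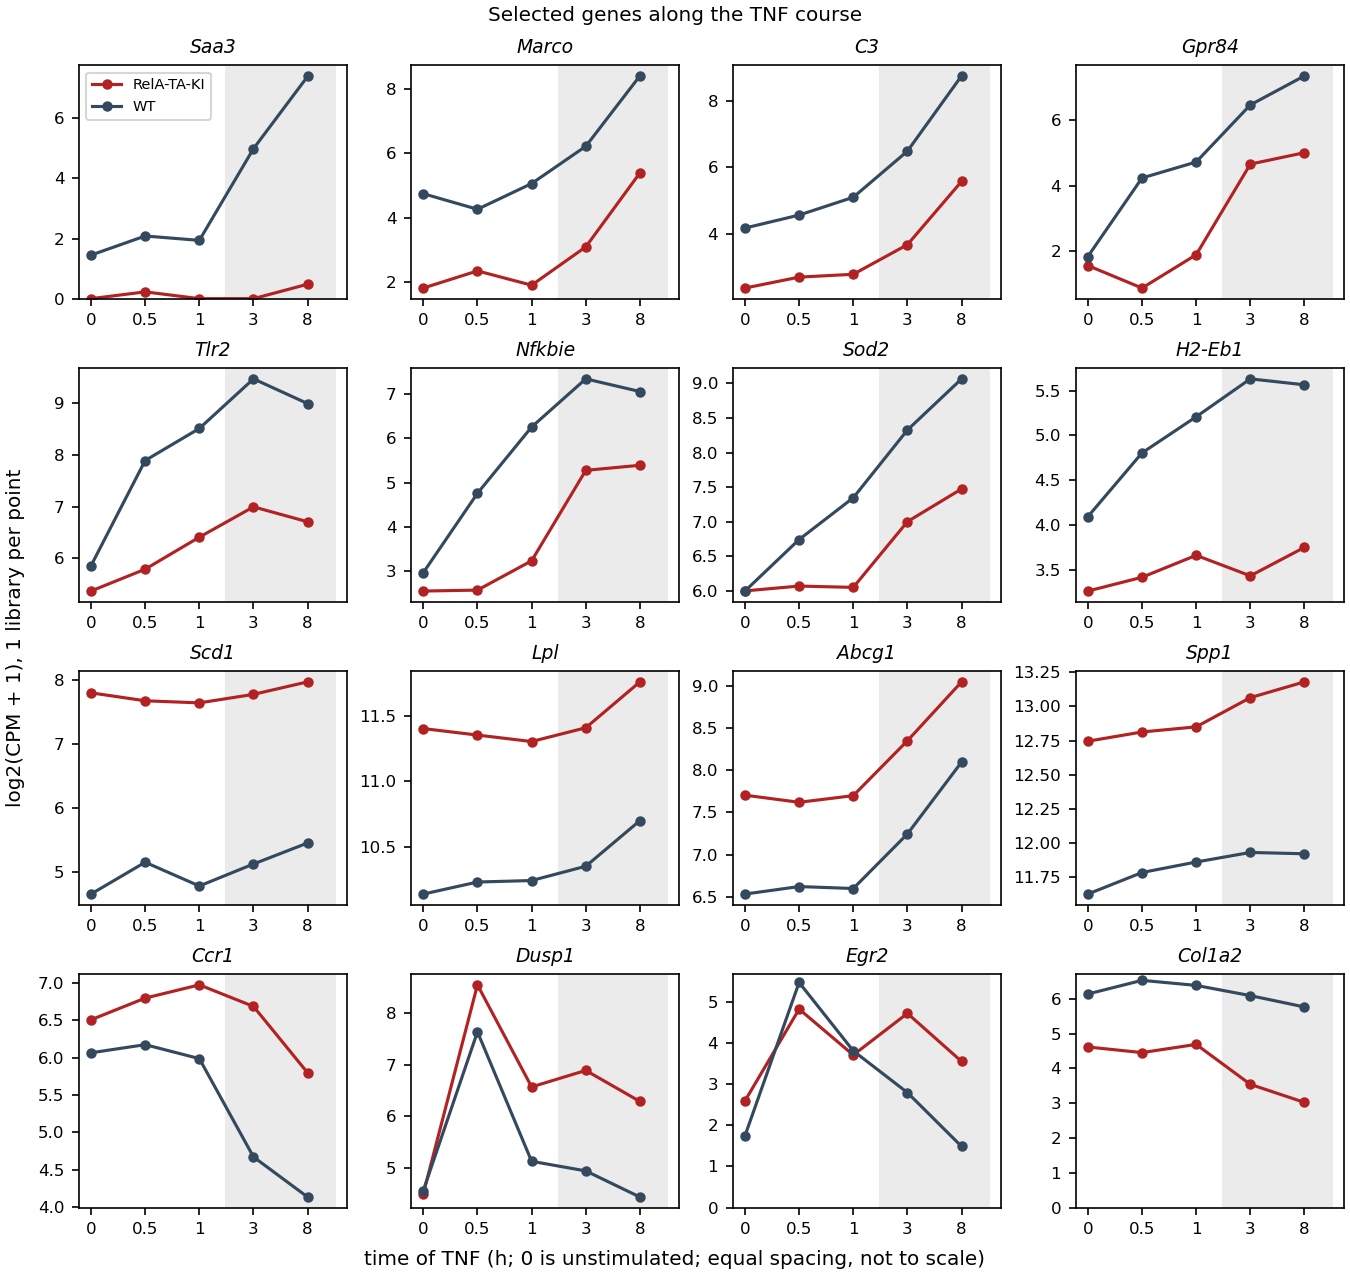
Expression of 16 genes in 1 library per point, as log2(CPM + 1) against time of TNF (h, equal spacing), RelA-TA-KI in red and WT in blue, with the 3 and 8 h libraries shaded. Saa3 climbs to 167 CPM in WT and to 0.396 CPM in RelA-TA-KI, while Scd1, Lpl and Spp1 are higher in RelA-TA-KI at every time.

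Among receptors and signal transducers of the TLR4 and TNF receptor pathways the largest difference was that of Tlr2. This receptor for bacterial lipoproteins is itself a known NF-kB target. Tlr2 had 126 and 103 CPM in the knock-in and 709 and 509 CPM in WT, with a wide gap between the genotypes at both times. It was 5.26-fold lower in the knock-in (log2 fold change -2.39 ± 0.15, adjusted p = 2.0e-05), and either pair alone gave the call. Of the 27 tested members of this list 1 was called lower and 1 higher, against 2.41% and 3.27% of all genes tested. The higher one was Ticam1, which encodes the adaptor TRIF, with 56.1 and 45.5 CPM in the knock-in and 37.1 and 32.4 CPM in WT (0.55 ± 0.13, adjusted p = 0.031, lost with library totals). The list's median was 0.06 and turned to -0.05 with library totals. In edgeR's quasi-likelihood test 7 of the 27 had an unadjusted p under 0.05. With the 8 TNF libraries alone 2 were called lower and 3 higher.

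Of 15 tested NF-kB subunits and feedback inhibitors 14 had a negative log2 fold change, but 1 was called lower, against 2.41% of all genes tested. That gene was Nfkb1, which encodes p105 and p50, with 150 and 120 CPM in the knock-in and 237 and 169 CPM in WT (-0.58 ± 0.08, adjusted p = 0.0024). Its knock-in libraries lay below both WT libraries, and the call held in the 3 h pair alone (adjusted p = 0.021) but not in the 8 h pair alone (0.077). Nfkbie, the inhibitor IkB-epsilon, had 37.8 and 41.0 CPM in the knock-in and 162 and 132 CPM in WT, a larger and fully separated gap, yet its standard error of 0.63 on the log2 scale left an adjusted p of 0.20. Relb, a subunit of the non-canonical pathway, had 41.9 and 46.7 CPM in the knock-in and 108 and 82.7 CPM in WT (adjusted p = 0.11). Nfkbia, which encodes IkB-alpha, had 271 and 211 CPM in the knock-in and 542 and 400.4 CPM in WT (adjusted p = 0.46). The spread in these tests came from how the genotype pairs differed within every stage of both stimuli. When it was taken from the 4 late TNF libraries alone, 6 of the 15 were called lower and 0 higher. That smaller fit has fewer residual degrees of freedom than the 4 of the main fit, so its spread leans more on other genes. The list's median was -0.66 at 3 h and -0.24 at 8 h. Both knock-in libraries lay below both WT libraries at 7 of the 15, against 17.6% of all genes tested.

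Of 26 survival and adhesion genes, a further group of direct targets, 2 were lower and 1 higher (median -0.06), against 2.41% and 3.27% of all genes tested. With either pair left out 0 were lower and 1 higher. Sod2, the mitochondrial superoxide dismutase, had 127 and 177 CPM in the knock-in and 320 and 535 CPM in WT (-1.47 ± 0.21, adjusted p = 0.0076), with no overlap. It was not called from 1 pair alone. The collagenase Mmp13 went the other way, with 48.4 and 48.3 CPM in the knock-in and 19.9 and 12.97 CPM in WT (1.56 ± 0.20, adjusted p = 0.0027). Icam1, an adhesion molecule for leukocytes, had 200.5 and 288 CPM in the knock-in and 824 and 673 CPM in WT, without overlap, but was not called (adjusted p = 0.25).

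Cytokines and chemokines showed no common direction among the called genes. Of 20 tested cytokine genes 1 was called, Il1rn, the antagonist of the interleukin-1 receptor, with 106 and 262 CPM in the knock-in and 59.1 and 123 CPM in WT (0.97 ± 0.18, adjusted p = 0.020, lost with library totals, with limma-voom and in either pair alone). Each knock-in value was above the WT value of its own time. Tnf itself had 197 and 94.8 CPM in the knock-in and 193 and 125 CPM in WT. Of 17 chemokines 1 was higher and 1 lower, and of the 20 cytokine genes 1 was higher and 0 lower. Over all genes tested 3.27% were higher and 2.41% lower. Ccl9, a chemokine that recruits myeloid cells, had 1259.5 and 2212 CPM in the knock-in and 792 and 1013 CPM in WT (0.90 ± 0.14, adjusted p = 0.010). Ccl22, a ligand of the receptor CCR4, had 10.8 and 25.3 CPM in the knock-in and 34.1 and 43.8 CPM in WT (-1.14 ± 0.24, adjusted p = 0.029). Both Ccl22 values in the knock-in were below both in WT. With 1 pair alone Ccl9 was called at 8 h (adjusted p = 0.0085, against 0.084 at 3 h) and Ccl22 at 3 h (0.033, against 0.20 at 8 h). Ccl5, which attracts T cells, had 1.67 and 47.3 CPM in the knock-in and 20.8 and 142 CPM in WT, and Cxcl10, an interferon-inducible chemokine, had 37.1 and 359.7 CPM in the knock-in and 97.5 and 592 CPM in WT. They missed the threshold, with adjusted p of 0.063 and 0.060.

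Of 22 tested genes of antigen presentation 6 were lower and 2 higher, with a median of -0.33. The MHC class II genes H2-Aa, H2-Ab1 and H2-Eb1 and the invariant chain Cd74, which load peptides for CD4 T cells, were all lower in the knock-in. H2-Eb1 had 9.81 and 12.5 CPM in the knock-in and 48.5 and 46.3 CPM in WT, and the 2 genotypes did not overlap. Its log2 fold change was -2.09 ± 0.19 (adjusted p = 0.00017), and either pair alone gave the call. Cd74 had 26.9 and 59.8 CPM in the knock-in and 139 and 147 CPM in WT (-1.77 ± 0.33, adjusted p = 0.036). Tapbp, a chaperone of class I loading, and Psmb10, an immunoproteasome subunit, were also lower, Psmb10 with 36.1 and 132 CPM in the knock-in and 66.8 and 202 CPM in WT (-0.73 ± 0.09, adjusted p = 0.0014). The class I heavy chain H2-D1 and its partner B2m were higher, B2m with 1035 and 2056 CPM in the knock-in and 814 and 1631 CPM in WT (0.34 ± 0.06, adjusted p = 0.0075). With library totals neither of these was called higher, and 8 of the 22 were called lower. Without the 3 h pair 2 were lower and 1 higher, and without the 8 h pair 4 were lower and 0 higher. Markers of dendritic cells, another class II-rich cell type, summed to 106 and 136 CPM in the knock-in and 101 and 136 CPM in WT. The 6 tested dendritic markers had a median log2 fold change of -0.69, with 5 negative. At 3 of them, against 17.6% of all genes tested, both knock-in libraries lay below both WT libraries. Of these 1 was called lower, Ccr7, at 1 and 6 reads in the knock-in and 12 and 26 reads in WT, a call lost with DESeq2 and with either pair left out. Their part in the lower class II genes was not tested.

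The RNA of 37 interferon-stimulated genes summed to 1815 and 21745 CPM in the knock-in and 2128 and 19778 CPM in WT, far more at 8 h than at 3 h in both genotypes. Of these 2 were called lower and 1 higher, against 2.41% and 3.27% of all genes tested, with a median of -0.01. Zbp1, a sensor of nucleic acids, had 2.92 and 106 CPM in the knock-in and 6.88 and 164 CPM in WT (-0.70 ± 0.14, adjusted p = 0.016). Mx1, an antiviral GTPase, had 7.72 and 190 CPM in the knock-in and 14.6 and 236 CPM in WT (-0.49 ± 0.13, adjusted p = 0.048). Ifi44 had 1.04 and 48.1 CPM in the knock-in and 0.48 and 25.8 CPM in WT (0.91 ± 0.19, adjusted p = 0.022). None of these 3 calls was made by DESeq2, and that of Mx1 was also lost with limma-voom and held in the 3 h pair alone. Without the 3 h pair 0 of the 37 were called, and without the 8 h pair 3 were lower. Of the 15 GBP and IRG GTPases, effectors of cell-autonomous immunity, 0 were called by edgeR's quasi-likelihood test, 3 had an unadjusted p under 0.05, DESeq2 called 2 lower and limma-voom 0. Their median was -0.81 at 3 h and -0.11 at 8 h, and without the 8 h pair 2 were called lower. Gbp2, among those that DESeq2 called, had 21.3 and 408 CPM in the knock-in and 142 and 834 CPM in WT.

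Of the 15 lower genes named for size, 8 had a known tie to the extracellular matrix, a grouping made after their values were seen and not tested. Loxl2 crosslinks collagen, Col5a2 and Col4a2 are collagen chains, Postn, Sparc and Bgn encode the matrix proteins periostin, osteonectin and biglycan, Cemip takes part in hyaluronan breakdown, and Fkbp10 is a collagen chaperone. Col5a2 had 5.01 and 3.36 CPM in the knock-in and 40.7 and 26.1 CPM in WT (-2.99 ± 0.23, adjusted p = 4.5e-05). Sparc had 5.22 and 1.98 CPM in the knock-in and 29.6 and 21.8 CPM in WT (-2.85 ± 0.27, adjusted p = 0.00021). Fkbp10 was called in neither pair alone. Each of these genes had both knock-in libraries below both WT libraries, as did 17.6% of all genes tested. Cyp1b1, a monooxygenase, and Dpysl3, a cytoskeletal regulator, completed the 15, Cyp1b1 with 2.5 and 1.98 CPM in the knock-in and 19.2 and 17.1 CPM in WT.

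Markers of stromal cells, a list that also holds Sparc, moved with them. Of 12 stromal markers 8 were tested, and 6 of these were called lower and 0 higher, with a median of -2.31. Col1a2, a chain of type I collagen, had 10.6 and 7.13 CPM in the knock-in and 67.1 and 53.3 CPM in WT (-2.76 ± 0.21, adjusted p = 5.7e-05), and Fn1, fibronectin, had 24.4 and 8.91 CPM in the knock-in and 69.2 and 52.2 CPM in WT (-1.91 ± 0.19, adjusted p = 0.00041). The sum of the list was 63.8 and 28.3 CPM in the knock-in and 253 and 201 CPM in WT. Before stimulation it was 105 CPM in the knock-in and 279 CPM in WT, and over the 9 conditions the highest knock-in library (145 CPM) was under the lowest WT library (201 CPM). Of the defining fibroblast markers, Lum and Thy1 had 0 reads in all 4 late TNF libraries, Col3a1 had 1 read in each, Dcn had 0 and 0 reads in the knock-in and 13 and 3 in WT, and Pdgfra had 1 and 0 reads in the knock-in and 4 and 1 in WT. The part of these cells in the lower levels of matrix genes, of C3, Saa3 and Hp, or of any other gene was not tested.

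Of 12 tested neutrophil markers 4 were called lower and 1 higher (median -0.83), against 1 and 0 without the 3 h pair and 0 and 0 without the 8 h pair. S100a9, an abundant calcium-binding protein of neutrophils, had 49.5 and 41.2 CPM in the knock-in and 72.1 and 68.8 CPM in WT (-0.64 ± 0.13, adjusted p = 0.019), while the collagenase Mmp8 had 96.4 and 63.9 CPM in the knock-in and 79.1 and 42.3 CPM in WT. None of these calls of Ngp, S100a9 and Mmp8 was made in 1 pair alone, and that of Mmp8 was lost with library totals. The marker sum was 247 and 193 CPM in the knock-in and 317 and 265 CPM in WT, and the knock-in sum was also below WT before stimulation (199 against 279 CPM). Of 12 lymphocyte markers 3 were tested and 1 called, Il7r, the interleukin-7 receptor, with 126 and 153 CPM in the knock-in and 77.0 and 72.2 CPM in WT. The T-cell and B-cell genes Cd3e, Cd3g, Cd3d, Cd8a, Cd79a and Ms4a1 had at most 2 reads in any of these libraries. Kit, the stem cell factor receptor, had 20.2 and 32.5 CPM in the knock-in and 10.1 and 8.65 CPM in WT (1.47 ± 0.22, adjusted p = 0.0031, and 0.096 in the 3 h pair alone), while the mast cell genes Cpa3, Mcpt4, Fcer1a and Tpsb2 had 0 reads in all 4. Hbb-bs, the 1 erythroid marker tested of 8, had 2 and 0 reads in the knock-in and 9 and 6 reads in WT (adjusted p = 0.18). Of the 7 tested genes of the mitochondrial genome 0 were called by edgeR's quasi-likelihood test, DESeq2 or limma-voom, and 0 had an unadjusted p under 0.05. Their median was -0.79 at 3 h and 0.38 at 8 h, and without the 8 h pair all 7 were called lower, beside the low mitochondrial share of the knock-in library at 3 h.

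**Figure D3:**
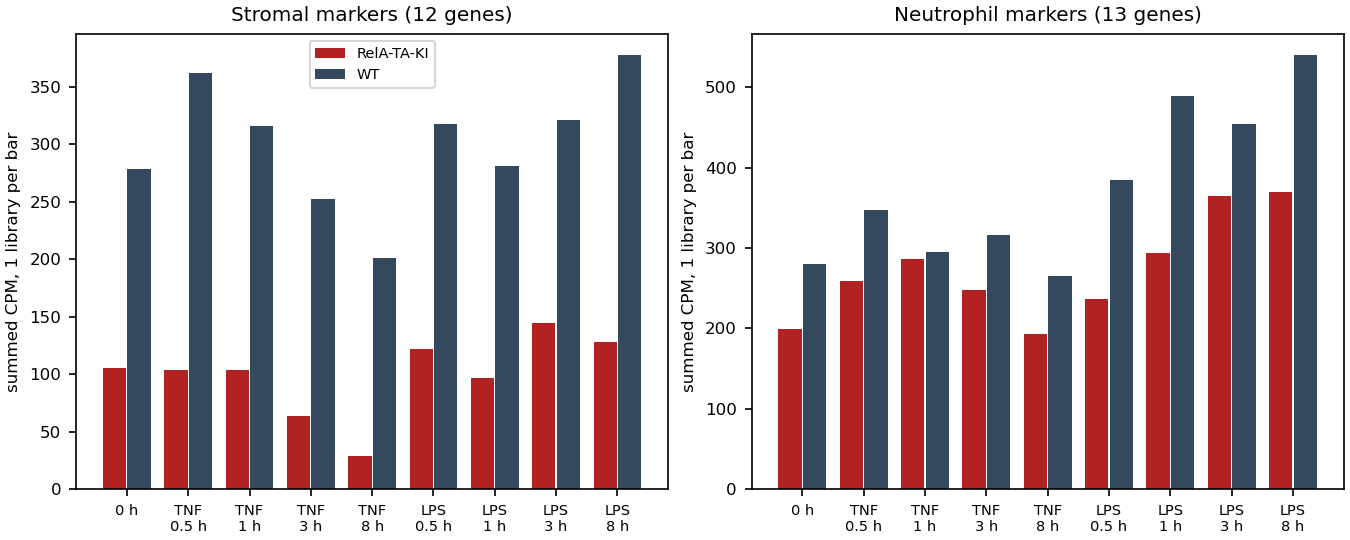
Summed CPM of stromal markers (left) and neutrophil markers (right) in all 18 libraries, 1 library per bar, RelA-TA-KI in red and WT in blue. Each RelA-TA-KI bar is under the WT bar of its condition, from 28.3 to 145 CPM against 201 to 377 CPM for stromal markers.

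Genes of fatty acid synthesis and of LXR, the nuclear receptor that responds to oxysterols, formed the most uniform higher group. Of 18 tested members 11 were called higher and 0 lower, and the median was 0.49. Both knock-in libraries lay above both WT libraries at 14 of the 18, against 16.5% of all genes tested. Scd1, a stearoyl-CoA desaturase that makes oleic acid (chromosome 19, 44394451 to 44407709, minus strand), had 218 and 250 CPM in the knock-in and 33.8 and 42.7 CPM in WT. It was 6.14-fold higher, with a log2 fold change of 2.62 ± 0.16 and an adjusted p of 3.7e-05. Its relative Scd2 had 3493 and 3393 CPM in the knock-in and 1586 and 1831 CPM in WT (1.01 ± 0.07, adjusted p = 2.4e-05). Lpl, the lipase that releases fatty acids from lipoproteins, had 2719 and 3466 CPM in the knock-in and 1306 and 1663 CPM in WT (1.06 ± 0.06, adjusted p = 4.5e-06). All 3 were called in either pair alone. The difference was present before TNF, with Scd1 at 222 CPM in the knock-in and 24.1 CPM in WT. Abcg1, a cholesterol exporter and LXR target, had 325 and 527 CPM in the knock-in and 151 and 273 CPM in WT (1.03 ± 0.12, adjusted p = 0.00073). It climbed between 3 and 8 h in both genotypes. The lipoprotein gene Apoe, the desaturases Fads1 and Fads2, the elongase Elovl5, the phospholipid enzyme Lpcat3, the ubiquitin ligase Mylip and the transcription factor Srebf1 were the others called. With library totals 8 of the 18 were called, as without the 8 h pair, and without the 3 h pair 6.

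Smaller differences in the same direction were found in neighbouring metabolic lists. Of 21 cholesterol synthesis genes 5 were higher and 0 lower (median 0.23), of 22 glycolysis and hypoxia genes 5 and 0 (median 0.29), and of 20 lysosomal genes 5 and 0 (median 0.18). In unstimulated cells, in their single pair, the medians of these lists were already 0.23, 0.45 and 0.05. With library totals the counts were 2, 3 and 2. Without the 3 h pair they were 1, 4 and 4, and without the 8 h pair 0, 1 and 1. Hmgcs1, an early enzyme of cholesterol synthesis, had 830 and 733 CPM in the knock-in and 642 and 549 CPM in WT (0.39 ± 0.08, adjusted p = 0.013). Its call was lost with library totals and in either pair alone. Slc16a3, the lactate exporter MCT4, had 106 and 183 CPM in the knock-in and 64.2 and 80.2 CPM in WT (0.97 ± 0.12, adjusted p = 0.00088). Before TNF it had 85.7 CPM in the knock-in and 42.8 CPM in WT. The protease gene Ctsl had 1084 and 1062 CPM in the knock-in and 741 and 667 CPM in WT (0.61 ± 0.07, adjusted p = 0.00046). Both were called in either pair alone. Among 17 NRF2 and iron genes 1 was called (Ftl1, higher, lost with library totals and DESeq2), close to the share of all genes tested. The list itself leaned the other way, with a median of -0.09 and 12 of 17 negative. In edgeR's quasi-likelihood test 5 had an unadjusted p under 0.05. With the 8 TNF libraries alone 5 were called lower and 1 higher. In the unfolded protein response Atf6 was higher and Herpud1 lower among 18, with a median of 0.11 that turned to about 0 with library totals. Of 26 proliferation genes Cdca7 was called higher and 0 were lower (median -0.16), against 3.27% and 2.41% of all genes tested. However, 22 of the 26 had a negative log2 fold change, and 8 had an unadjusted p under 0.05 in edgeR's quasi-likelihood test. With library totals 2 were called lower and 1 higher.

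Of 27 immediate early genes, which are transcribed without new protein synthesis, 7 were called higher and 1 lower late after TNF, and 19 were not called. The median was 0.48, 0.26 without the 3 h pair, and 9 of the 27 had a negative log2 fold change. With either pair left out 5 were called higher and 0 lower. Dusp1, a phosphatase that switches off MAP kinases, had 117 and 77.0 CPM in the knock-in and 29.6 and 20.5 CPM in WT (1.95 ± 0.24, adjusted p = 0.0051), although neither pair alone gave the call. Before stimulation the genotypes were close, at 21.5 CPM in the knock-in and 22.5 CPM in WT. Egr2, a zinc finger factor, had 25.2 and 10.7 CPM in the knock-in and 5.92 and 1.80 CPM in WT (2.22 ± 0.27, adjusted p = 0.0010). The AP-1 subunit Jund had 211 and 152 CPM in the knock-in and 110 and 68.6 CPM in WT (1.04 ± 0.09, adjusted p = 0.00018). Atf3, a stress-induced factor, had 579 and 413 CPM in the knock-in and 312 and 257 CPM in WT (0.79 ± 0.08, adjusted p = 0.00031). In each of these 4 genes, called from these same libraries, both knock-in values were above both WT values. Over the list this held at 12 of the 27, against 16.5% of all genes tested. At 4 of the 27 both knock-in values were below both WT values, against 17.6%. Ier5, Klf6 and Myc were the other higher members. Maff, a small Maf factor, was the lower one, with 18.2 and 7.13 CPM in the knock-in and 40.2 and 21.1 CPM in WT (-1.30 ± 0.25, adjusted p = 0.016). Fos, with 16.9 and 25.1 CPM in the knock-in and 10.4 and 13.1 CPM in WT, was not called.

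Other genes named for how far the knock-in lay above WT had no list in common. The chemokine receptor Ccr1 had 102 and 54.6 CPM in the knock-in and 24.5 and 16.6 CPM in WT (1.91 ± 0.21, adjusted p = 0.0016), and Ccr3, another chemokine receptor, had 9.60 and 6.93 CPM in the knock-in and 2.40 and 1.08 CPM in WT (2.23 ± 0.34, adjusted p = 0.0037). Before TNF Ccr1 had 90.0 CPM in the knock-in and 66.0 CPM in WT. With 1 pair alone Ccr1 was called at 3 h (adjusted p = 0.021, against 0.060 at 8 h) and Ccr3 at 8 h (0.041, against 0.051 at 3 h). Dio2, which activates thyroid hormone, had 45.3 and 107 CPM in the knock-in and 12.6 and 24.1 CPM in WT (2.02 ± 0.20, adjusted p = 0.00041). Dhrs9, a retinol dehydrogenase, had 55.9 and 49.7 CPM in the knock-in and 18.7 and 10.8 CPM in WT (1.84 ± 0.16, adjusted p = 0.00012). The remaining genes named for size were Klf9, Cacna1b, Tgm1, Fat3, Frmd6, Emp2, Ighm and Mamdc2, with log2 fold changes of 1.77 (Mamdc2) to 2.38 (Klf9). Ighm, the heavy chain of IgM, had 49.7 and 38.2 CPM in the knock-in and 11.4 and 13.3 CPM in WT, beside the at most 2 reads of the B-cell genes Cd79a and Ms4a1 given above. Spp1, which encodes osteopontin, was picked after its values were seen because its p-value was the smallest of the higher genes. It had 8561 and 9274 CPM in the knock-in and 3906 and 3879 CPM in WT (1.19 ± 0.06, adjusted p = 2.5e-06). Before TNF the knock-in was already above WT in single libraries of Spp1 (6864 against 3163 CPM) and Ighm (57.2 against 12.9 CPM). The same held for Dhrs9 (42.0 against 16.3 CPM) and Dio2 (15.1 against 5.07 CPM).

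Macrophage identity genes split. Of 23 tested, 4 were higher and 3 lower, with a median of 0.10 that turned to -0.01 with library totals. Without the 3 h pair 2 were higher and 1 lower, and without the 8 h pair 2 and 0. Csf1r, given above, was lower (-0.50 ± 0.09, adjusted p = 0.0084), as were the lysozyme gene Lyz2 and the engulfment receptor Mertk. Cd68, a lysosomal glycoprotein, had 1663 and 2123 CPM in the knock-in and 1316 and 1481 CPM in WT (0.43 ± 0.07, adjusted p = 0.0066). Itgam, the integrin CD11b, the mannose receptor Mrc1 and the complement gene C1qc were the other higher members, Itgam with 530.1 and 402 CPM in the knock-in and 367 and 327 CPM in WT. With 1 pair alone Csf1r and Cd68 were called at 8 h and Itgam at 3 h. The summed list was close in both genotypes, at 16181 and 16780 CPM in the knock-in and 15286 and 16927 CPM in WT.

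**Figure D4:**
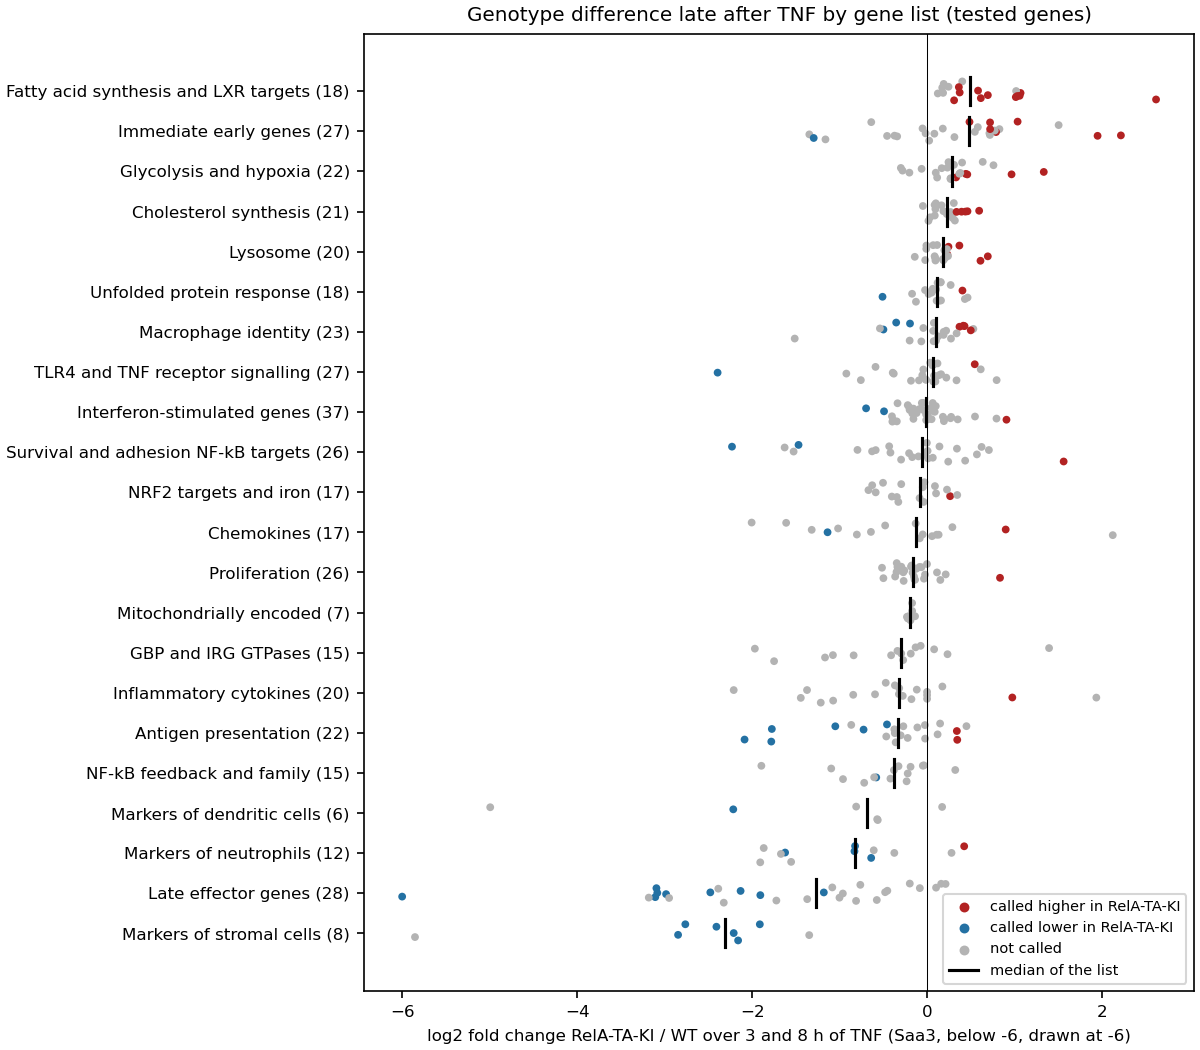
Log2 fold change, RelA-TA-KI over WT over 3 and 8 h of TNF, of each tested gene in 22 lists, red where called higher, blue where called lower, with each list's median as a black line. Stromal markers and late effector genes lie farthest to the left, with medians of -2.31 and -1.28, and fatty acid and LXR genes farthest to the right, with a median of 0.49.

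The genes that TNF itself changed were then set against all genes. Taking both genotypes together, 3373 genes responded late after TNF (29% of those tested). Of these 575 (4.95%) were induced and 334 (2.87%) repressed with a log2 change of 1 or more against unstimulated cells. Of the induced genes 64 were lower in the knock-in (11.1%, against 2.41% of all tested) and 46 were higher (8.00%, against 3.27%). Their median log2 fold change was -0.31 at 3 h and 0.03 at 8 h, -0.08 over both. Of the repressed genes 22 were lower (6.59%) and 3 higher (0.898%), with a median of -0.32. Most called genes, 331 of 380 higher and 194 of 280 lower, were in neither class, as were 10712 of all 11621 genes tested. Within that class 3.09% were higher and 1.81% lower, smaller shares than over all genes tested.

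Whether the genotype difference grew after TNF was tested directly. Compared with unstimulated cells, 0 genes (0%) had a different genotype effect late after TNF in edgeR's quasi-likelihood test with Benjamini-Hochberg adjustment, 572 had an unadjusted p under 0.05 (4.92% of genes tested), DESeq2 called 4 and limma-voom 0. The unstimulated effect rests on 1 pair. The genes called higher late after TNF had a median of 0.26 in unstimulated cells and those called lower -0.46, against 0.60 and -1.30 late after TNF, but the genes were selected on the late values. Between 8 and 3 h of TNF 0 genes (0%) differed in genotype effect, with 625 at an unadjusted p under 0.05, 27 called by DESeq2 and 11 by limma-voom.

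The effects of single genes by stage are given side by side, since these comparisons share the spread of 1 fit. For Tlr2 the log2 fold change was -0.50 in unstimulated cells, -2.12 at 0.5 and 1 h of TNF and -2.39 at 3 and 8 h of TNF. Sod2 followed the same sequence, with 0.00 before stimulation, -0.999 early and -1.47 late. Gpr84 had -0.39 before stimulation, -3.598 early and -2.13 late, so its largest gap was early. Marco, by contrast, had -3.34 before stimulation, -2.84 early and -3.11 late. Among higher genes Scd1 had 3.20, 2.73 and 2.62, and Lpl 1.26, 1.09 and 1.06, in the same order. Dusp1 had -0.06 before stimulation, 1.17 early and 1.95 late, and Klf9 0.85, 0.81 and 2.38. None of these 8 genes passed the test of late against unstimulated or of late against early effects.

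Compared with 0.5 and 1 h of TNF, 2 genes (0.0172%) differed, both with a higher genotype effect late. Egr2 had 27.2 and 12.0 CPM in the knock-in and 43.1 and 12.97 CPM in WT at 0.5 and 1 h, so the early peak was not higher in the knock-in, whereas the late levels given above were. The late minus early difference in log2 fold change was 2.69 ± 0.33 (adjusted p = 0.033). Skil, which encodes SnoN, a repressor of TGF-beta signalling, had 61.2 and 115 CPM in the knock-in and 133 and 222 CPM in WT at 0.5 and 1 h. At 3 and 8 h it had 105 and 107 CPM in the knock-in and 90.0 and 80.2 CPM in WT, a difference of 1.35 ± 0.14 from the early effect (adjusted p = 0.011). Without the 8 h pair neither was called, and limma-voom did not call Egr2 (adjusted p = 0.068). In the fit of the 8 TNF libraries alone 24 genes were called, and DESeq2, which called 20, shared neither gene.

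The genotype effect late after TNF differed from that at the same times of LPS for 114 genes (0.981%), 53 with a higher effect after TNF (0.456%) and 61 with a lower one (0.525%). The WT and knock-in libraries of the 2 stimuli are separate, so no library is shared. Clec4e, the Mincle receptor for mycobacterial and fungal glycolipids, had 774 and 2030.1 CPM in the knock-in and 998 and 2072 CPM in WT after TNF. After LPS it had 252 and 411 CPM in the knock-in and 1268 and 3351 CPM in WT. The genotypes were thus close after TNF and well apart after LPS, and the effects differed by 2.48 ± 0.23 (adjusted p = 0.0059). Serpinb9, an inhibitor of granzyme B, had 16.1 and 38.4 CPM in the knock-in and 21.6 and 42.3 CPM in WT after TNF. After LPS it had 38.7 and 295 CPM in the knock-in and 14.3 and 73.2 CPM in WT, a difference in effect of -2.08 ± 0.21 (adjusted p = 0.0029). Here the knock-in was above WT at both LPS times. Flt1, a receptor for vascular endothelial growth factor, had 0.626 and 3.96 CPM in the knock-in and 1.1 and 5.94 CPM in WT after TNF. After LPS it had 3.20 and 142 CPM in the knock-in and 0.852 and 18.6 CPM in WT, and the effects differed by -3.45 ± 0.42 (adjusted p = 0.0048).

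Marco, not among the 8 largest, was also called, with a genotype effect of -3.11 late after TNF and -4.68 late after LPS (difference 1.57 ± 0.26, adjusted p = 0.020). For Tlr2 the effects were -2.39 after TNF and -2.64 after LPS and for Scd1 2.62 and 3.03, and neither difference was called. The other genes named for this comparison had higher effects after TNF in Slco4a1 (3.25 ± 0.56), Sema6d (3.00 ± 0.57), Trim36 (2.66 ± 0.47) and Htr2a (2.41 ± 0.44), and a lower one in Gpr160 (-2.18 ± 0.41, not called by DESeq2). Htr2a, a serotonin receptor, had 7.09 and 15.4 CPM in the knock-in and 3.04 and 5.40 CPM in WT after TNF, and 6.63 and 0.884 CPM in the knock-in and 11.1 and 4.18 CPM in WT after LPS. Its genotype ratio was above 1 at both TNF times and below 1 at both LPS times. Slco4a1, an organic anion transporter, had 7.30 and 8.91 CPM in the knock-in and 6.56 and 6.66 CPM in WT after TNF, and 0.686 and 0.59 CPM in the knock-in and 6.18 and 3.85 CPM in WT after LPS. Without the 3 h TNF pair 57 genes were called in this comparison.

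**Figure D5:**
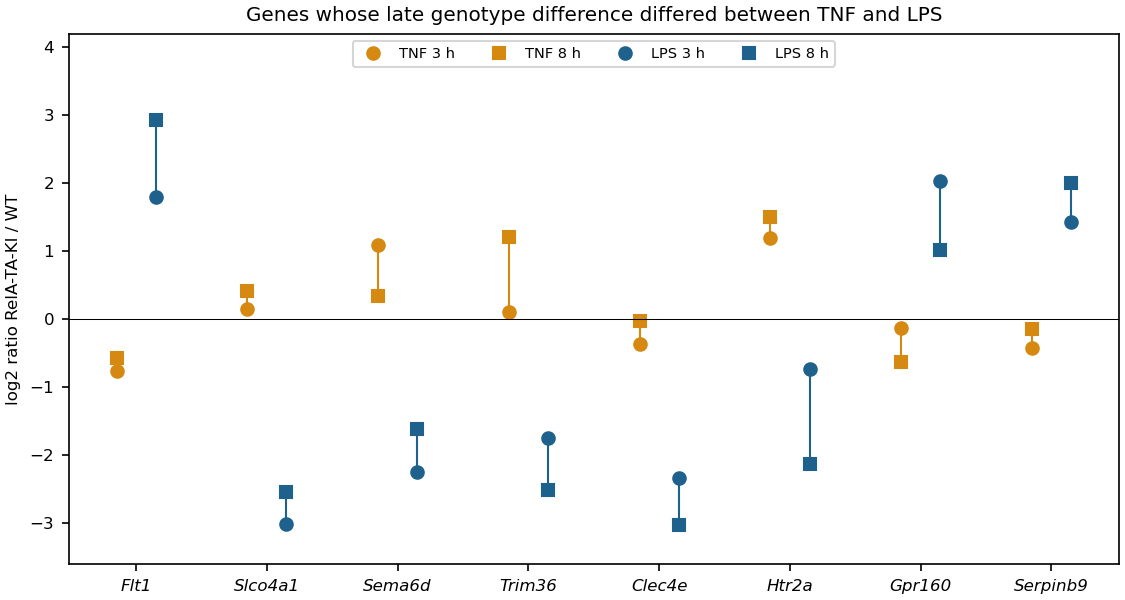
Log2 ratio of RelA-TA-KI to WT in each pair for the 8 genes named in the comparison of stimuli, orange for TNF and blue for LPS, circles at 3 h and squares at 8 h. After LPS Clec4e lies far below 0 in both pairs, and after TNF its ratios lie near 0.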

How the data were processed

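Poly(A) RNA of 18 libraries was sequenced as single ends of 50 bases after KAPA Stranded mRNA-Seq preparation, per the labels' protocols. The authors deposited raw gene counts and gene positions on mm10. The tools named are, per the submitters' processing notes, cutadapt 1.12, STAR, featureCounts 1.5.0 and DESeq2. Strand setting and annotation release: not given in the sources used here. Overlapping and antisense genes are therefore less certain. Totals ran from 4663650 to 6721917 counts. Of 45706 genes, 11621 passed edgeR's filterByExpr (minimum count 10, minimum total 15).

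The test was edgeR's quasi-likelihood F test (edgeR 4.0.16, R 4.3.3) on TMM-scaled counts with robust dispersion, and p-values were adjusted by Benjamini and Hochberg over all genes tested (threshold 0.05). All 18 libraries entered 1 fit, with condition as a block that pairs the genotypes and 5 genotype effects (unstimulated, and early and late times of each agent), leaving 4 residual degrees of freedom, or 3 for 8 against 3 h. "Called" means an adjusted p under 0.05, "higher" and "lower" compare RelA-TA-KI with WT, and "±" gives a standard error, the change over the square root of F, which is approximate. Log2 values used a prior count of 0.5. Counting intervals are exact at 95% and cover counting error only.

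Named genes were called with 1 sign at both times, averaged at least 1 on the log2 CPM scale and were not numbered models: the 15 largest changes in each direction, up to 3 called members per list by p (the member with the highest mean CPM where none was called) and the 8 largest per comparison of effects. A few genes that the rule or the lists select are left out of the text and stay in the counts. Other list members, and Rela and Adgre1, were picked after their values were seen. The lists were written from textbook knowledge, and the members and lists were chosen with earlier results of these data known. Alternatives were other scalings and filters, DESeq2 1.42.0, limma-voom (limma 3.58.1), smaller fits and leaving out a pair. On simulated data the share of false calls exceeded the adjustment threshold.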

Additional observations from a re-analysis of the deposited data

Results flagged for a closer look

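The genotype effect differed between early and late TNF, by a test of the difference itself, for Egr2 (late minus early 2.69 on the log2 scale) and Skil (1.35). It differed between TNF and LPS at 3 and 8 h for Flt1 (-3.45), Slco4a1 (3.25), Sema6d (3.00), Trim36 (2.66), Clec4e (2.48), Htr2a (2.41), Gpr160 (-2.18) and Serpinb9 (-2.08), as TNF minus LPS. Slco4a1 was under 10 CPM in all 8 libraries, and Flt1, Sema6d, Htr2a and Gpr160 in most of them, while Clec4e was above 250 CPM in all 8.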

How the results depend on the processing

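The 660 calls late after TNF became 392 with DESeq2 (361 shared), 1019 with the 8 TNF libraries alone (648 shared) and 250 to 265 with 1 pair left out. DESeq2 size factors gave 653, library totals 680, no filter 810, a filter of 1 CPM in 9 libraries 673, limma-voom 726, the 4 late TNF libraries alone 676 (527 shared) and 1 effect for the other 7 conditions 450. The difference from unstimulated cells, 0 genes, became 6 without a filter and 4 with DESeq2. That from early TNF, 2 genes, became 37 without a filter, 20 with DESeq2, 1 with limma-voom, 24 with the 8 TNF libraries and 0 to 2 with 1 pair left out. That from late LPS, 114 genes, became 331 without a filter and 57 to 78 with 1 pair left out. The 0 genes between 8 and 3 h became 7 with library totals, 45 without a filter, 27 with DESeq2 and 11 with limma-voom. The 909 genes with a log2 response to TNF of 1 or more became 458 to 1388 with 1 pair left out and 268 at a log2 change of 2 or more. Leaving out a pair removes samples, and the cause of the other shifts was not tested. Of the 87 named genes and differences, 8 lost the call with library totals, 13 of 82 with DESeq2, 36 without the 3 h pair and 39 without the 8 h pair. Of the 74 called genes, 32 were called in either pair alone and 21 in neither. The 1 reversal was mt-Co1, not called, at 0.40 without the 3 h pair. No paired analysis by replicate number was possible because the labels carry none. With 1 library per genotype and time and 4663650 to 5521652 counts each, small differences at a single time can be missed. Genes of a few reads have wide errors.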
